A study of Mus musculus with 19 samples.

Results

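The effect of Ang II on the transcriptome of the suprarenal abdominal aorta (SRA) was compared between mice with and without IKKβ in smooth muscle. For each gene, the log2 change between saline-infused and Ang II-treated IKKβ+/+ mice was subtracted from the same change in IKKβ-/- mice. A difference above 0 means that the gene went further up, or less far down, with Ang II in IKKβ-/- mice than in IKKβ+/+ mice, and a difference below 0 means the opposite. All 19 mice of the series enter this value, and 14845 of its 20408 genes were tested, since the filter asked for a normalized count of 10 or more in 4 or more mice. Poly(A) RNA was sequenced from male mice on chow, after 24 h of subcutaneous infusion by osmotic pump. Their given age of 8 weeks is, in the study's methods, that at the start of tamoxifen, before the pumps were implanted. The labelled dose of Ang II was 500 to 1000 ng/min/kg. The study's methods name a single dose for these mice, the upper end of that range. The groups were 5 saline-infused and 5 Ang II-treated IKKβ+/+ mice (SMA-CreERT2 Ikkb WT/WT ApoE-/-) and 4 saline-infused and 5 Ang II-treated IKKβ-/- mice (SMA-CreERT2 Ikkb Flox/Flox ApoE-/-), all on the C57BL/6J background. All 4 groups lacked ApoE, carried the tamoxifen-inducible Cre and received tamoxifen. The Cre is driven by the promoter of smooth muscle α-actin, so Ikbkb stays intact in the other cells of the vessel wall.

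Angiotensin II acts through the AT1 receptor of vascular smooth muscle cells, raises calcium, activates MAP kinases, and stimulates contraction, protein synthesis and matrix production. IKKβ is the kinase of the IKK complex that phosphorylates the inhibitor IκBα and so frees NF-κB to enter the nucleus, and it has further substrates in mTOR signalling and mRNA stability. Whether a response to Ang II needs smooth muscle IKKβ is the question that a difference between the effects in the 2 genotypes addresses.

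The libraries held 11382573 to 19906694 reads on genes. The targeted gene, Ikbkb, was 23.8% lower in whole-SRA RNA of the 9 IKKβ-/- mice, with 533 ± 78.9 against 699.7 ± 66.8 normalized counts (SD) in the 10 IKKβ+/+ mice (p = 0.000173 by an exact two-sided permutation test). The groups overlapped in 1 of the 9 deleted mice, and the other 8 had fewer counts than any mouse with the intact gene. The summed markers of smooth muscle were at least 305181 normalized counts in every mouse, so the tissue was smooth muscle-rich as labelled, whereas those of mesothelium did not exceed 27.0. Mitochondrially encoded mRNAs took 5.99 to 9.07% of the reads in saline-infused and 10.1 to 14.1% in Ang II-treated IKKβ+/+ mice, but 8.89 to 38.7% and 7.88 to 37.2% in the corresponding IKKβ-/- mice. Mice X2406 (IKKβ-/-, saline) and X2385 (IKKβ-/-, Ang II) held the highest shares, and X2406 also had 637461 normalized counts of the nuclear RNA Malat1, against at most 139051 in the other mice. Markers of white adipocytes moved with the comparison as well. The sum of the 8 markers was 1031 to 14907 normalized counts in saline-infused and 3255 to 9254 in Ang II-treated IKKβ+/+ mice, and 1122 to 4613 and 3195 to 41972 in the IKKβ-/- groups. Counts of genes called are therefore given below also with these libraries left out and with these scores as covariates. For gene lists, medians with the white adipocyte score are given for part of them. List medians without both libraries or with the mitochondrial score are not given. In bulk RNA, fewer cells of a type and less RNA per cell cannot be told apart.

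No gene passed an adjusted p under 0.1 together with a fold above 1.2 (limma on log2(normalized count + 1), Benjamini-Hochberg over 14845 genes, 0% of those tested). The smallest adjusted p was 0.215. At an unadjusted p under 0.05 the difference was above 0 in 735 genes (4.95%) and below 0 in 919 genes (6.19%), together 11.1% of the genes tested. The standard error of the difference had a median of 0.27 on the log2 scale, against 0.18 for the effect of Ang II within IKKβ+/+ and 0.19 within IKKβ-/- mice. The smallest difference that could reach an unadjusted p of 0.05 had a median of 0.56 over the genes. The count of genes called depended on the tool and on single mice. The Wald test of DESeq2 on the recovered reads called 279 genes (1.88%), of which 111 (0.748% of all) had a difference above 0. The quasi-likelihood test of edgeR called 3 genes (Abra, Atf3 and Csrnp1, 0.0202%), and limma with array quality weights called 76 (0.512%). Without mouse X2356 (IKKβ+/+, Ang II) limma called 79 genes (0.532%), and without X2406 it called 19 (0.128%). The genes named below stand at the front of a ranking, and none of them passed the adjusted threshold for the difference in limma with all 19 mice.

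**Figure D1:**
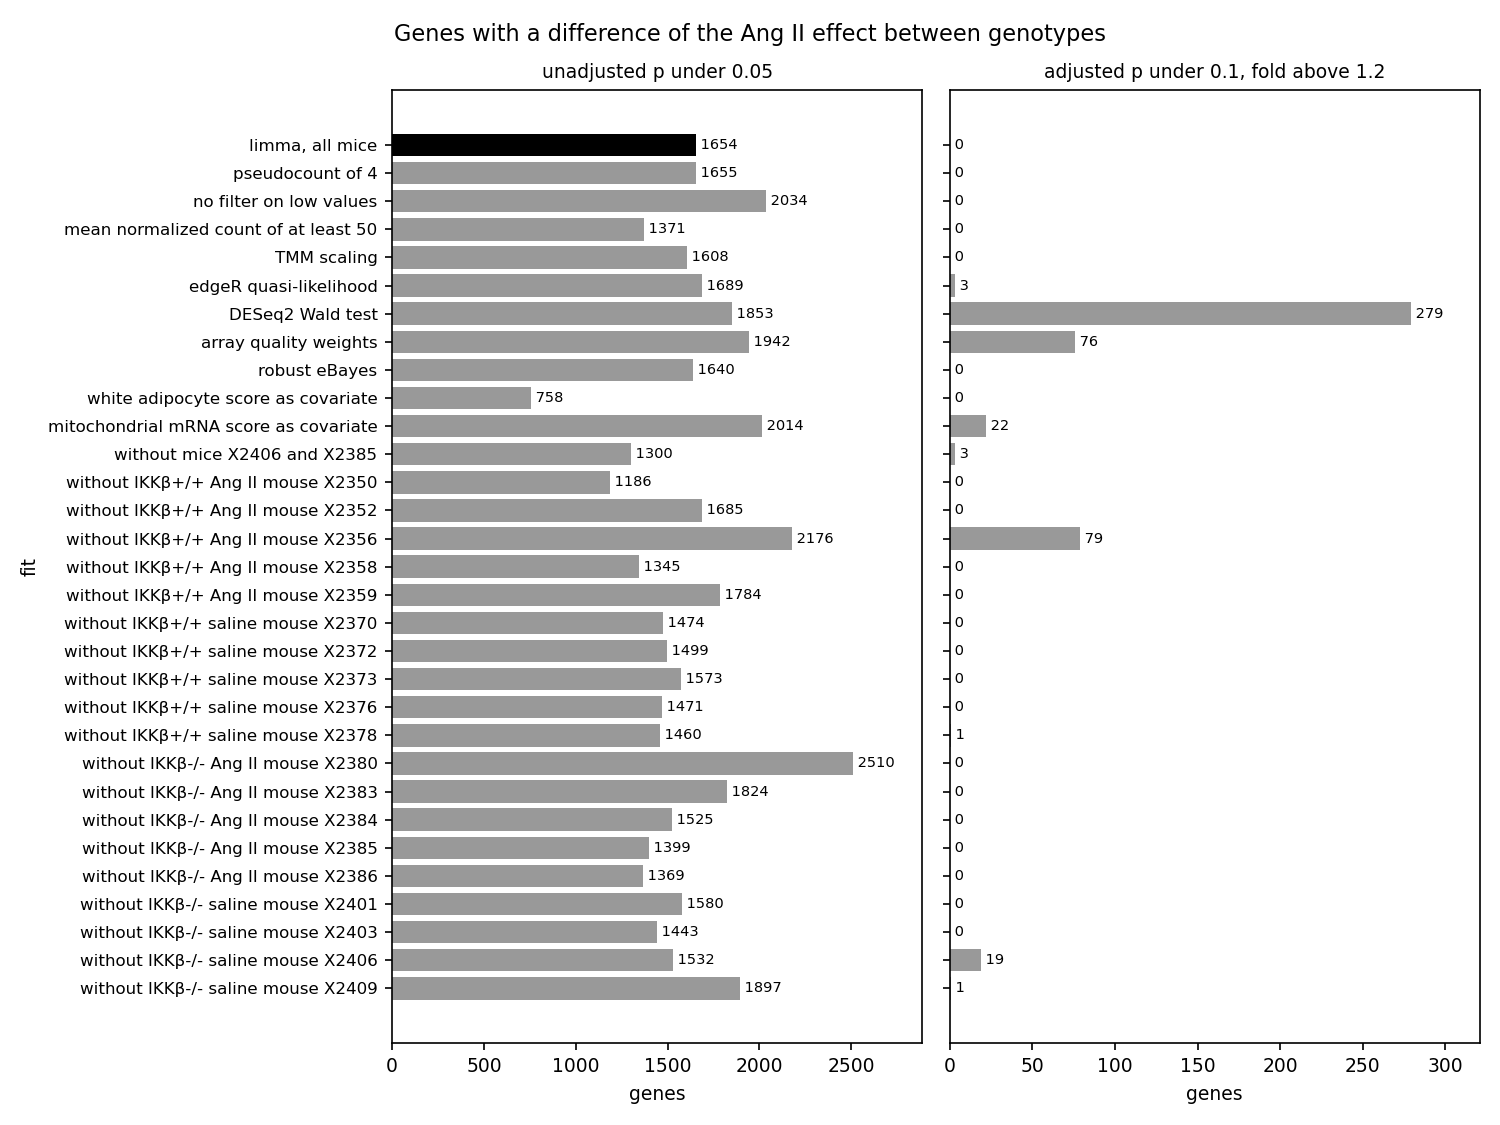
Number of genes (x axes) with an unadjusted p under 0.05 (left) and with an adjusted p under 0.1 and a fold above 1.2 (right) for the difference of the Ang II effect between genotypes, in limma with all mice (black bar) and in each other fit (grey bars). The left count runs from 758 with the white adipocyte score as a covariate to 2510 without mouse X2380, and the right count from 0 to 279.

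The 2 Ang II effects opposed each other, each past 1.2-fold, in 255 of the 735 genes with a difference above 0 (34.7%) and in 236 of the 919 genes below 0 (25.7%), against 7.28% of all genes. The difference is built from these effects, so the shares describe its shape and were not tested. Of the 4 group means, that of the saline-infused IKKβ-/- group was the lowest for 495 of the 735 genes above 0 (67.3%, against 29.3% of all genes) and the highest for 517 of the 919 genes below 0 (56.3%, against 27% of all genes). The saline-infused IKKβ+/+ group was the highest for 345 of the genes above 0 (46.9%, against 25.8% of all genes) and the lowest for 555 of the genes below 0 (60.4%, against 24.4% of all genes). The contrast between genotypes was larger with saline than with Ang II in 66.9% of the genes above 0 and in 59.1% of those below 0, against 55.4% of all genes.  Within single comparisons, limma called 1286 genes for Ang II in IKKβ+/+ mice (8.66%), 785 for Ang II in IKKβ-/- mice (5.29%), 812 between genotypes with saline (5.47%) and 19 between genotypes with Ang II (0.128%).

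Among the genes with a difference below 0, Adamts1 had the smallest unadjusted p. It encodes a secreted metalloproteinase that cleaves large proteoglycans of the matrix and lies on chromosome 16 from 85793827 to 85803113 (GRCm38). Normalized counts were 2910.2, 2920.3, 3811, 3894 and 5511 in saline-infused and 4952, 5946, 7045, 9867 and 13102 in Ang II-treated IKKβ+/+ mice. In IKKβ-/- mice they were 4821, 8168, 11206 and 13324 with saline and 2402, 2603, 3773, 5225 and 5408 with Ang II. Adamts1 thus rose with Ang II in IKKβ+/+ mice (log2 1.05, limma adjusted p = 0.0507) and fell in IKKβ-/- mice (-1.25, limma adjusted p = 0.0377), with 4 of 5 Ang II-treated IKKβ+/+ mice above and 3 of 5 Ang II-treated IKKβ-/- mice below every saline-infused mouse of their genotype. The difference was -2.31 ± 0.44 (SE) with a 95% interval of -3.22 to -1.39 (unadjusted p = 3.81e-05, limma adjusted p = 0.215), and it stayed between -2.59 and -2.11 when each mouse was left out.

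Csrnp1, a nuclear protein encoded on chromosome 9 from 119971163 to 119984658, rose in IKKβ+/+ mice (limma adjusted p = 0.0194) and had a log2 value of -1.11 in IKKβ-/- mice (limma adjusted p = 0.11). Its counts were 139, 146, 171, 198 and 203 in saline-infused and 279, 304, 421, 704 and 1069 in Ang II-treated IKKβ+/+ mice, without overlap, and 211, 411, 676 and 729 and 135, 179, 239, 246 and 286 in the IKKβ-/- groups. All 4 saline-infused IKKβ-/- mice lay above the highest saline-infused IKKβ+/+ mouse. The difference was -2.63 ± 0.51 (SE, unadjusted p = 4.55e-05). Csrnp1 overlaps Cx3cr1 on the same strand in the annotation, so reads of the shared stretch could be assigned to either gene. Abra, an actin-binding protein of muscle, had 353, 1484, 1523 and 1646 normalized counts in saline-infused IKKβ-/- mice and 92.5, 177, 186, 241 and 309 in Ang II-treated IKKβ-/- mice. Mouse X2406 held the lowest of the saline values, and the difference of -3.11 ± 0.64 (SE) lay between -3.64 and -2.86 when each mouse was left out. In IKKβ+/+ mice Abra did not pass the test with Ang II (log2 0.60, limma adjusted p = 0.471), and in IKKβ-/- mice it fell (-2.51, limma adjusted p = 0.008).

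Cited2, a coregulator that binds the acetyltransferases CBP and p300, had 951, 1081, 1142 and 1435 normalized counts in saline-infused and 364, 375, 417, 507 and 581 in Ang II-treated IKKβ-/- mice. The Ang II-treated mice lay below all saline-infused ones, while in IKKβ+/+ mice the means were 496 ± 154 with saline and 664 ± 331 with Ang II (SD, n = 5 each). Its difference was -1.73 ± 0.35 (SE). Coq10b, a mitochondrial protein that binds coenzyme Q, had 1839, 2038, 2171 and 2494 counts in saline-infused and 618, 737, 845, 961 and 1198 in Ang II-treated IKKβ-/- mice, again without overlap. Its difference was -1.73 ± 0.38 (SE). Irs2, an adaptor of the insulin receptor, had a difference of -2.25 ± 0.50 (SE), with means of 677 ± 262, 1071 ± 349, 1977 ± 968 and 651 ± 299 normalized counts (SD) in the order of IKKβ+/+ saline, IKKβ+/+ Ang II, IKKβ-/- saline and IKKβ-/- Ang II. Mthfd1l, a mitochondrial enzyme of one-carbon metabolism, differed by -2.08 ± 0.45 (SE) and fell with Ang II in IKKβ-/- mice (log2 -1.72, limma adjusted p = 0.00958). Smaller differences with small errors were those of Nup88, a protein of the nuclear pore, at -0.71 ± 0.15 (SE), of the deubiquitinase Usp42 at -0.94 ± 0.21 (SE), and of Mllt11 at -1.20 ± 0.26 (SE).

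The long non-coding RNA AC160336.1 rose with Ang II in IKKβ+/+ mice, from 5.99, 6.38, 7.6, 11.9 and 14.1 to 45.9, 51.6, 67.6, 76.4 and 87.8 normalized counts, and had 18, 20, 26.1 and 32.7 with saline and 20.9, 21.9, 32.8, 46.2 and 55.6 with Ang II in IKKβ-/- mice. All saline-infused IKKβ-/- mice were above the saline-infused IKKβ+/+ mice and below all Ang II-treated IKKβ+/+ mice, and the difference was -2.28 ± 0.47 (SE). Its locus overlaps the gene model Gm5624 on its own strand and pseudogenes and a further gene model on the other, so the assignment of reads is uncertain. Alb, which encodes the liver's plasma protein albumin, had the numerically largest difference of the genes named here, at -5.75 ± 1.19 (SE). Its counts were low, 30.6, 40.6, 99.4 and 307 in saline-infused and 0, 0, 0.924, 1.29 and 6.35 in Ang II-treated IKKβ-/- mice, and 1.76, 5.7, 7.17, 25.4 and 26.6 and 2.19, 6.4, 12.4, 36.8 and 40.7 in IKKβ+/+ mice, and a fold fitted on values this near 0 depends on the pseudocount. Of these 12 genes, the saline-infused IKKβ-/- group held the highest mean for 8. Between genotypes with saline 9 were called, and for Ang II in IKKβ-/- mice 9, where 5.47% and 5.29% of all genes were called. The genes were chosen by a difference that is built from these same contrasts, so the counts describe the choice and were not tested.

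**Figure D2:**
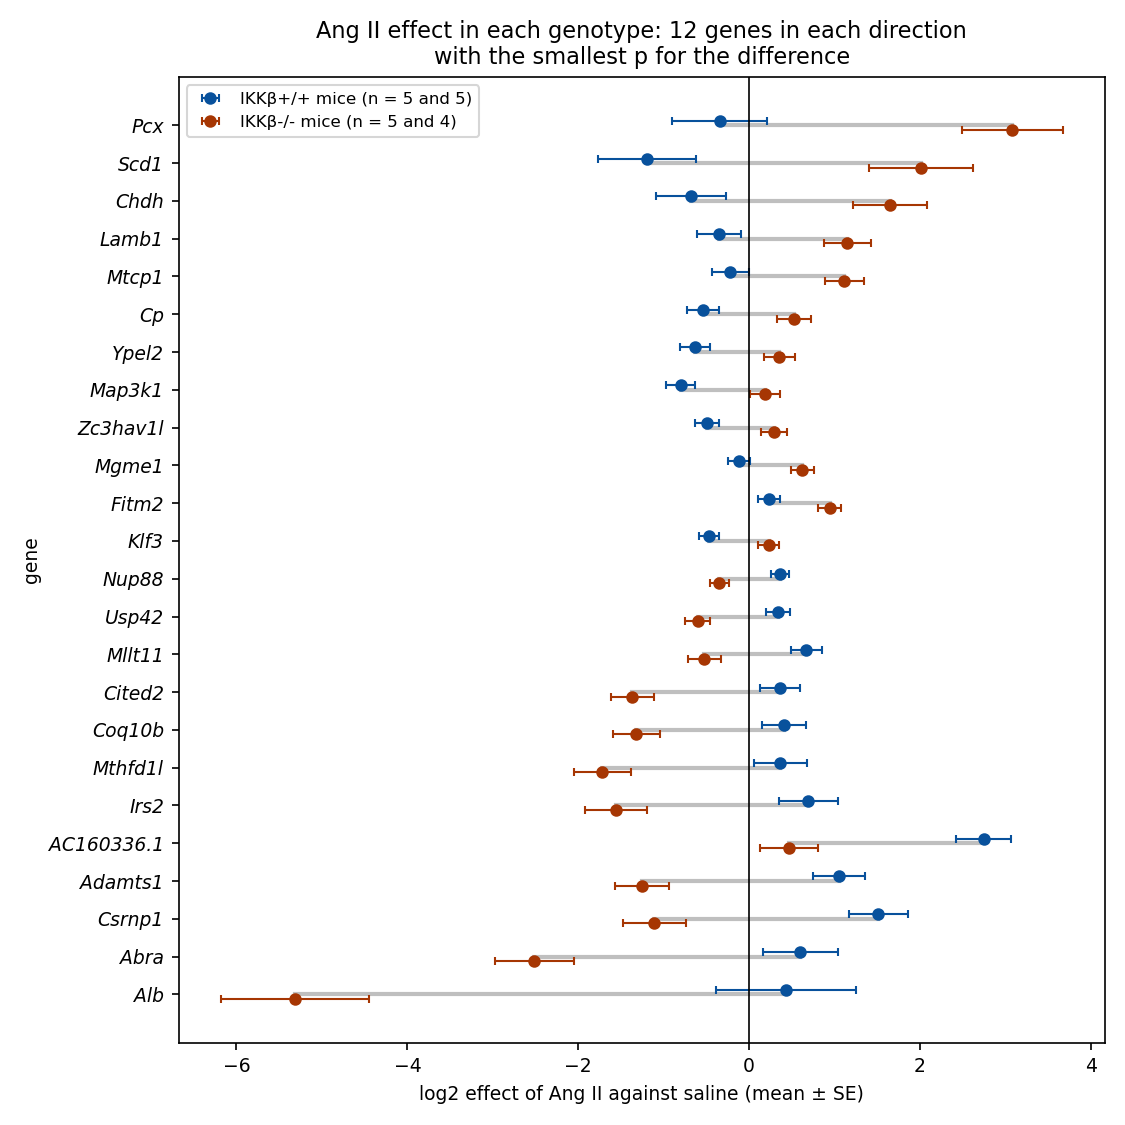
Log2 effect of Ang II against saline (x axis, mean ± SE from limma) in IKKβ+/+ mice (blue) and IKKβ-/- mice (brown) for the 12 genes in each direction with the smallest unadjusted p for the difference among those with a group mean of at least 50 normalized counts. Grey bars join the 2 effects of a gene, and for all 12 genes at the bottom the brown point lies left of the blue one.

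Promoters are printed for 4 genes with a difference below 0, Adamts1, Cited2 and Coq10b of the 12 above and the clock gene Per1, because they hold short motifs that factors of the cAMP response and of the clock are known to bind. They are windows of 250 bases before the start, 5′ to 3′, from RefSeq on GRCm38.p6. Capitals mark TGACG (the core of the site of CREB and ATF factors, CGTCA on the other strand), CACGTG (an E-box of clock and other bHLH factors) and the D-box TTATGTAA or TTATGCAA (TTACATAA or TTGCATAA on the other strand). Adamts1 at chr16:85803114-85803363 (minus strand) holds TGACG, and Cited2 at chr10:17722978-17723227 (plus strand) holds CACGTG. Coq10b at chr1:55052520-55052769 (plus strand) and Per1 at chr11:69098699-69098948 (plus strand, the first of its 2 windows) hold all 3.
Adamts1: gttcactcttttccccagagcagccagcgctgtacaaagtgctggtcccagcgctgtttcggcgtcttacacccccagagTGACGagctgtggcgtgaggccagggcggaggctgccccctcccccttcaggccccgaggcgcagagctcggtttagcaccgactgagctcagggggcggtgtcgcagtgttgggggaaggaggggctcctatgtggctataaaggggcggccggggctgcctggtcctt
Cited2: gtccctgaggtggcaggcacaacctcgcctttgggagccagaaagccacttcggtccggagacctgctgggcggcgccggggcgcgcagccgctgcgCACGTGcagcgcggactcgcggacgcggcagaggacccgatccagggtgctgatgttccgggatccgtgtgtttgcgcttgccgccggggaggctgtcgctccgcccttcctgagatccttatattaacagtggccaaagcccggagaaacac
Coq10b: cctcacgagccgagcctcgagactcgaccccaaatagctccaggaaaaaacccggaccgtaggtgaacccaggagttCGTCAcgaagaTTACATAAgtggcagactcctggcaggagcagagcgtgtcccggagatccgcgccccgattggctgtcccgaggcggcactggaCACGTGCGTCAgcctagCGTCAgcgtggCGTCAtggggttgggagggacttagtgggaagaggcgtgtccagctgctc
Per1: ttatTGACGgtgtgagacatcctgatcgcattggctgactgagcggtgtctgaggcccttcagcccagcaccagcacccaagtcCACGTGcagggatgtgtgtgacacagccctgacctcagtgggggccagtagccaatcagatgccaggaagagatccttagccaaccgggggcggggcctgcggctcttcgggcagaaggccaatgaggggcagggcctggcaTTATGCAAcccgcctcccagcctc
The genes were chosen after their motifs had been seen. On both strands, TGACG stood in 17.8%, CACGTG in 6.02% and the D-box in 1.5% of all 32851 windows. Of the 12 genes below 0, 9 had a window, and TGACG stood in those of 4 (Adamts1, Csrnp1, Coq10b and Mthfd1l), CACGTG in those of 3 (Cited2, Coq10b and Irs2) and the D-box in those of 2 (Alb and Coq10b). Of the 12 genes above 0, 11 had a window, with TGACG in 2, CACGTG in 1 and the D-box in 0. In Coq10b, TGACG stands 4 times, and 1 of these adjoins the CACGTG. A match describes letters and is not a binding site.

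Among the genes with a difference above 0 and a group mean of at least 50 normalized counts, Pcx had the smallest unadjusted p. It encodes pyruvate carboxylase, which makes oxaloacetate for gluconeogenesis and fat synthesis, and lies on chromosome 19 from 4510472 to 4621752. Its normalized counts were 39.6, 67.6, 135 and 147 in saline-infused and 258, 501, 659, 1437 and 1701 in Ang II-treated IKKβ-/- mice, without overlap, against 143, 233, 353, 444 and 1286 and 124, 272, 343, 364 and 488 in the IKKβ+/+ groups. Pcx rose with Ang II in IKKβ-/- mice (log2 3.08, limma adjusted p = 0.00958) and had a value of -0.34 in IKKβ+/+ mice (limma adjusted p = 0.782), a difference of 3.42 ± 0.81 (SE). Scd1, the desaturase that makes oleate, differed by 3.21 ± 0.84 (SE), with 999.9, 1483, 3107 and 8573 counts in saline-infused and 3697, 8414, 13330.2, 15657 and 16308 in Ang II-treated IKKβ-/- mice, which overlapped. Chdh, choline dehydrogenase, differed by 2.33 ± 0.59 (SE), and Fitm2, a protein of lipid droplet formation, by 0.71 ± 0.19 (SE). Fitm2 was the single gene of the 12 in which every Ang II-treated mouse lay above every saline-infused mouse of its genotype in both genotypes.

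The white adipocyte markers moved in the same direction, with a median difference of 3.54. With the white adipocyte score as a covariate, the difference of Pcx went from 3.42 to 1.19, that of Scd1 from 3.21 to 1.18 (unadjusted p = 0.0712) and that of Chdh from 2.33 to 1.04 (unadjusted p = 0.0538). Scd1 and Chdh were the genes of the 24 that no longer reached an unadjusted p of 0.05 there. Values of Mgme1, an exonuclease that maintains mitochondrial DNA (0.74 and 0.77), of Mtcp1 (1.33 and 1.3) and of Ypel2 (0.99 and 0.98) moved little. Smaller differences under this covariate were not limited to lipid genes. Lamb1 went from 1.5 to 1.03 and Map3k1 from 0.99 to 0.76. Adamts1 went from -2.31 to -1.71, AC160336.1 from -2.28 to -1.51 and Irs2 from -2.25 to -1.64. Cited2 and Coq10b, both at -1.73, moved less, to -1.61 and -1.66.

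Map3k1, the kinase MEKK1 upstream of JNK on chromosome 13 from 111746428 to 111808993, fell with Ang II in IKKβ+/+ mice, from 554, 579.8, 644, 692 and 764 to 259.9, 263, 418, 442 and 533 normalized counts without overlap (limma adjusted p = 0.0124). In IKKβ-/- mice it was 399.6, 405, 469 and 498 with saline and 450.1, 456, 504, 529.5 and 579.7 with Ang II, and the difference was 0.99 ± 0.24 (SE). Klf3, a Krüppel-like repressor, had 1698, 1796, 1833, 1995 and 2168 counts in saline-infused and 1056, 1183, 1411, 1582 and 1695 in Ang II-treated IKKβ+/+ mice, all of the latter lower, and 1361, 1380.1, 1438 and 1488 and 1510.4, 1574, 1579, 1769.9 and 1896 in IKKβ-/- mice, all of the latter higher. Its difference was 0.70 ± 0.17 (SE). Lamb1, the β1 chain of laminins of the basement membrane, rose in IKKβ-/- mice, from 204, 274, 276 and 399 to 415, 486, 605, 799 and 951 (limma adjusted p = 0.028), and differed by 1.5 ± 0.38 (SE). Cp, the copper-carrying ferroxidase ceruloplasmin, differed by 1.07 ± 0.28 (SE) and Zc3hav1l by 0.78 ± 0.20 (SE). Mtcp1, at 1.33 ± 0.32 (SE), shares its locus with Cmc4 on the same strand, so its reads could belong to either. For 9 of the 12 genes above 0 the saline-infused IKKβ-/- group held the lowest mean.

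**Figure D3:**
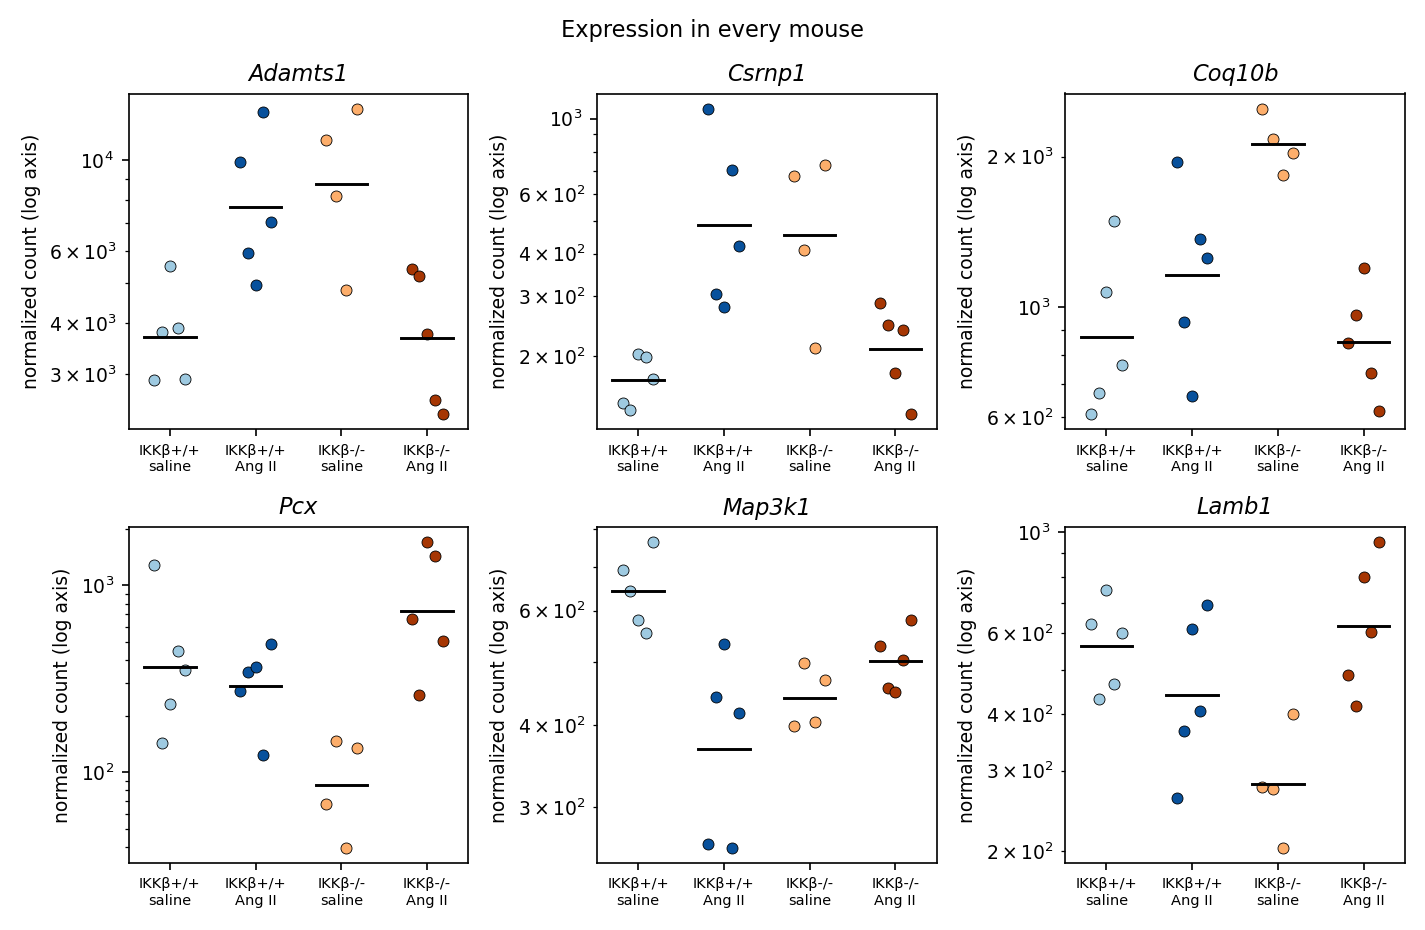
Normalized counts (log axis) of 6 genes in every mouse, by group, with horizontal lines at the mean of the log2 values. In saline-infused IKKβ-/- mice Adamts1, Csrnp1 and Coq10b had a higher mean, and Pcx, Map3k1 and Lamb1 a lower one, than in Ang II-treated IKKβ-/- mice, while in IKKβ+/+ mice the order of these means was the reverse.

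Lists of genes of single processes, some of which share genes, are described by the median difference of their tested members, beside a median of -0.0017 over all genes. Members at an unadjusted p under 0.05 are counted as well, where 4.95% of all genes were above 0 and 6.19% below 0. Of 28 immediate early genes, transcription factors and phosphatases that cells induce within minutes of a stimulus, 15 had a difference below 0 at an unadjusted p under 0.05 and 1 above 0 (Dusp6, 0.74), where 6.19% and 4.95% of all genes did. The median difference was -1.34, made of 0.16 in IKKβ+/+ and -1.14 in IKKβ-/- mice, and it ranged from -1.56 to -1.12 when each mouse was left out. Atf3, a stress-induced repressor of the ATF family, led the list with 888, 3109, 10053 and 11849 normalized counts in saline-infused and 153, 206, 234, 256 and 376 in Ang II-treated IKKβ-/- mice. The groups did not overlap, whereas saline-infused and Ang II-treated IKKβ+/+ mice, at 385, 755, 884, 906 and 1448 and 168, 442, 1369, 2875 and 3411, did, and the difference was -4.49 ± 1.05 (SE, unadjusted p = 0.000358).

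Other members were Nr4a1 at -2.66, an orphan nuclear receptor, Klf6 at -1.56, Ier3 at -2.74, Btg2 at -2.08, and the AP-1 subunits Jun, Jund, Fosb and Fosl2 at -1.99, -1.12, -3.26 and -1.76. Some well-known members were not among the 15. Fos had -1.21 (unadjusted p = 0.157), Egr1 -0.91 (unadjusted p = 0.112) and Junb -0.061 (unadjusted p = 0.906). The score of the list in a mouse, the mean of its genes' log2 values after each gene's mean over all mice was taken off, was -0.37 to 0.84 in saline-infused and -0.47 to 1.21 in Ang II-treated IKKβ+/+ mice, and -0.19 to 0.94 and -0.95 to -0.42 in the IKKβ-/- groups. All 5 Ang II-treated IKKβ-/- mice thus lay below the saline-infused IKKβ-/- mice, of which X2406 was the lowest. The median was -1.28 with the white adipocyte score as a covariate, and 13 genes reached an unadjusted p of 0.05 there, as did 5.11% of all genes. The Wald test of DESeq2 called 11 of the 28 genes, against 1.88% of all.

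Heat shock and cold-inducible genes, the chaperones and RNA-binding proteins of temperature stress, had a median of -0.82 over 18 genes. At an unadjusted p under 0.05, 8 were below 0 (44.4%, against 6.19% of all genes) and 0 above. Hspa1a, the inducible HSP70, had 733, 7445, 9007 and 9932 normalized counts in saline-infused and 92.5, 161, 293, 322 and 349 in Ang II-treated IKKβ-/- mice. In IKKβ+/+ mice its counts were 445, 627, 656, 850.3 and 3781 and 208, 392, 581, 756 and 6738, each group with 1 mouse far above the others. Its difference was -4.17 ± 1.18 (SE), and that of its near-identical neighbour Hspa1b, with which reads can be mixed up, was -3.86. Hspb1, Dnajb4, Dnajb1, Hsp90aa1 and the cold-inducible Rbm3 had differences of -2.22, -1.66, -1.94, -1.44 and -0.82. The median of the list ranged from -1.17 to -0.65 when each mouse was left out. Hspd1 and Hspe1, the chaperonins of mitochondria, had -0.075 and -0.26 and did not reach an unadjusted p of 0.05.

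Genes of the circadian clock had differences in both directions. The evening arm holds the repressors and output factors that follow the E-box activators. Of its 13 genes, 5 were below 0 at an unadjusted p under 0.05 (38.5%, against 6.19% of all genes). The median was -1.09, from -1.38 to -0.52 when each mouse was left out and -0.49 in the fit of edgeR. Per1, whose promoter is printed above, had 759, 1019.7, 1286 and 1687 normalized counts in saline-infused and 221, 265, 502, 664 and 674 in Ang II-treated IKKβ-/- mice, without overlap, and a difference of -2.02 ± 0.48 (SE). The deubiquitinase Usp2, the repressors Per2 and Ciart, and the D-box activator Hlf followed with -1.81, -1.25, -2.86 and -1.43. Nr1d1 (Rev-erbα) had 0.30 (unadjusted p = 0.598). In the morning arm, the activators Arntl and Npas2 had 2.08 and 1.33 and Clock 0.49. Of its 6 genes, 4 were above 0 at an unadjusted p under 0.05 (66.7%, against 4.95% of all genes). The mean of Arntl was 56.2 normalized counts in saline-infused and 391 in Ang II-treated IKKβ-/- mice, and 496 and 709.8 in IKKβ+/+ mice. The hour at which each mouse was killed is not given in the sources used here, so the hour and the group cannot be told apart. Of 17 glucocorticoid-induced genes, with a median of -0.62, 6 were below 0 at an unadjusted p under 0.05 (35.3%, against 6.19% of all genes). They included Per1, the kinase Sgk1 (-1.67) and the EGFR inhibitor Errfi1 (-1.93), whereas Fkbp5 (-0.20) and Zbtb16 (-0.49), markers of receptor activity, did not reach it. Lcn2, at 2.29, was the 1 gene above 0 at an unadjusted p under 0.05.

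Cholesterol biosynthesis enzymes, which turn acetyl-CoA into cholesterol under the control of SREBP2, had a median effect of Ang II of 0.89 in IKKβ+/+ and -0.037 in IKKβ-/- mice. The median difference was -0.82, from -1.02 to -0.57 when each mouse was left out. Of 21 genes, 11 had a difference below 0 at an unadjusted p under 0.05 (52.4%, against 6.19% of all genes). Sqle, squalene epoxidase, had 222, 254, 264, 291 and 474 normalized counts in saline-infused and 499, 606, 786, 818 and 2137 in Ang II-treated IKKβ+/+ mice, without overlap. In IKKβ-/- mice it had 247, 332, 340.3 and 463 with saline and 178, 195, 209, 497 and 628 with Ang II, and the difference was -1.72 ± 0.54 (SE, unadjusted p = 0.00473). Hmgcs1, the synthase early in the pathway, had -0.88, Cyp51 -1.22 and Fdft1 -1.04. Ebp, at 0.21 (unadjusted p = 0.271), was the 1 enzyme with a value above 0. The median between genotypes was 0.14 with saline and -0.51 with Ang II, whereas for the immediate early genes it was 0.37 with saline and -0.68 with Ang II. Under the adipocyte covariate the median was -0.62 and 3 of the 21 enzymes reached an unadjusted p of 0.05, as did 5.11% of all genes there. Regulators of SREBP and sterol transport had a median of 0.14, with members on both sides. The efflux transporter Abca1 (1.34 ± 0.48 (SE)), the oxysterol receptor LXRα encoded by Nr1h3 (0.83) and the ubiquitin ligase Mylip (0.72) were above 0, and the sterol carrier Stard4 (-0.72) was below 0, each at an unadjusted p under 0.05.

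Lists of subunits of large cellular machines had medians below 0. For ribosomal proteins and oxidative phosphorylation genes, the share of members at an unadjusted p under 0.05 was near that of all genes. All 31 proteasome subunits had a value below 0, with a median of -0.32. Of these, 13 reached an unadjusted p under 0.05 (41.9%, against 6.19% of all genes below 0). Under the adipocyte covariate the median was -0.27 and 2 subunits reached it, as did 5.11% of all genes there. Psmc5, an ATPase of the 19S cap, had means of 931 ± 56.5 and 1175 ± 145 normalized counts in saline-infused and Ang II-treated IKKβ+/+ mice and 1102 ± 93.9 and 1026 ± 52.3 in IKKβ-/- mice (SD), a difference of -0.43 ± 0.13 (SE). All 17 glycolysis genes were below 0 as well, with a median of -0.36 and 4 at an unadjusted p under 0.05 (23.5%), led by Tpi1 at -0.44. Under the adipocyte covariate the median was -0.28 and 2 genes reached it. The medians of cytosolic ribosomal proteins, ribosome biogenesis factors, mitochondrial ribosomal proteins and nuclear oxidative phosphorylation genes were -0.21, -0.25, -0.15 and -0.19. In these 4 lists 4 of 79, 7 of 71, 6 of 77 and 4 of 76 genes were below 0 at an unadjusted p under 0.05 (5.06%, 9.86%, 7.79% and 5.26%, against 6.19% of all genes). Their members with the smallest p were Rpl35 at -0.46, Noc4l at -0.75, Mrpl54 at -0.71 and Ndufv2, a complex I subunit, at -0.43. Under the adipocyte covariate the medians of these 4 lists were -0.30, -0.14, -0.21 and -0.33. There 5, 2, 3 and 11 of their genes, in either direction, reached an unadjusted p of 0.05. The 8 mitochondrially encoded mRNAs tested had a median of -0.65, which ranged from -1.04 to -0.15 when each mouse was left out, and 0 of them, mt-Nd1 at -0.74 included, reached an unadjusted p of 0.05. ATF4 targets of the amino acid response had a median of -0.23, and Atf4 itself had -1.05. At an unadjusted p under 0.05, 4 of 36 genes were below 0 (11.1%, Atf3, Atf4, Ppp1r15a and Cebpb) and 1 above 0 (2.78%, Asns at 0.89).

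Smooth muscle contractile genes had a median of -0.41. Of 24, 9 were below 0 at an unadjusted p under 0.05 (37.5%, against 6.19% of all genes). Actg2, a smooth muscle actin, had 1653, 2234, 2574, 3015 and 3286 normalized counts in saline-infused and 3667, 4682, 5106, 6164 and 8161 in Ang II-treated IKKβ+/+ mice, without overlap, and 3675, 3677, 4283 and 5881 and 2617, 3668, 3859, 4115 and 5985 in IKKβ-/- mice, with overlap. Its difference was -1.25 ± 0.33 (SE). Cnn1 (calponin), Des (desmin), Tpm2 and Myl9 had -1.03, -1.02, -0.85 and -0.60, whereas Myocd, the coactivator that drives the contractile programme, had -0.21 (unadjusted p = 0.665) and Itga8 0.031. Under the adipocyte covariate the median was -0.14 and 2 of the 24 genes reached an unadjusted p of 0.05, as did 5.11% of all genes there.

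Interferon-responsive genes lay on the other side. Of 27 interferon gamma responsive GTPases and regulators, 25 had a value above 0 and 4 reached an unadjusted p under 0.05 (14.8%, against 4.95% of all genes). The median was 0.66, from -1.45 in IKKβ+/+ and -0.65 in IKKβ-/- mice, both below 0 and the latter less so. Irf1, the transcription factor at the head of this response, had 444, 465, 559, 569 and 618 normalized counts in saline-infused and 179, 228, 237, 305 and 355 in Ang II-treated IKKβ+/+ mice, without overlap, and 301, 371, 371 and 494 and 243, 284, 397, 429 and 448 in IKKβ-/- mice. The difference was 0.94 ± 0.28 (SE), that of the checkpoint ligand Cd274 1.02 and that of Gbp6 1.46. The guanylate-binding proteins Gbp4 and Gbp5 had effects of -2.36 and -1.86 in IKKβ+/+ and -2.07 and -1.69 in IKKβ-/- mice, and differences of 0.29 and 0.17 that did not reach an unadjusted p of 0.05.

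Type I interferon genes had a median of 0.59 (from 0.36 to 0.76 when each mouse was left out). With Trim30a at 1.06 and the ubiquitin-like Isg15 at 1.33, 2 of 33 were above 0 at an unadjusted p under 0.05 (6.06%), near the 4.95% of all genes. MHC class I presentation had 0.38 with 3 of 19 (15.8%), among them the peptidase Erap1 (0.38), the heavy chain H2-D1 (0.64) and the transporter Tap2 (0.47). MHC class II had 0.41 with 1 of 9 (11.1%), H2-DMb1 at 0.71. Their medians ranged from 0.25 to 0.50 and from 0.19 to 0.61 when each mouse was left out. Under the adipocyte covariate the medians of the interferon gamma, type I, class I and class II lists were 0.25, 0.27, 0.11 and -0.03.

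Fatty acid oxidation genes had a median of 0.26, with 4 of 34 above 0 at an unadjusted p under 0.05 (11.8%, against 4.95% of all genes). These were Abcd2, a peroxisomal transporter, at 2.39 ± 0.73 (SE), the acyl-CoA synthetase Acsl1 at 1.27, the nuclear receptor Ppara at 2.47 and the dehydrogenase Acadm at 0.54. With the white adipocyte score as a covariate the median was -0.0071 and 0 of the 34 genes reached an unadjusted p of 0.05. Chaperones of the endoplasmic reticulum and the unfolded protein response had a median of 0.18. At an unadjusted p under 0.05, 5 of 41 were above 0 (12.2%) and 1 below 0 (2.44%), against 4.95% and 6.19% of all genes. Sdf2l1 had 73.9, 89.5, 101 and 105 normalized counts in saline-infused and 295, 311, 337, 377 and 622 in Ang II-treated IKKβ-/- mice, against 126, 127, 128, 198 and 353 and 250.1, 279, 298, 399 and 401 in IKKβ+/+ mice, and a difference of 1.12 ± 0.37 (SE). The protein disulfide isomerases Pdia6 and Pdia4 and the chaperone Hsp90b1 followed at 0.60, 0.59 and 0.49, and Hspa5 (BiP), the main chaperone of the compartment, had 0.39 (unadjusted p = 0.256). Here the adipocyte covariate left a median of 0.27 and 10 of the 41 genes at an unadjusted p under 0.05, where 5.11% of all genes reached it.

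**Figure D4:**
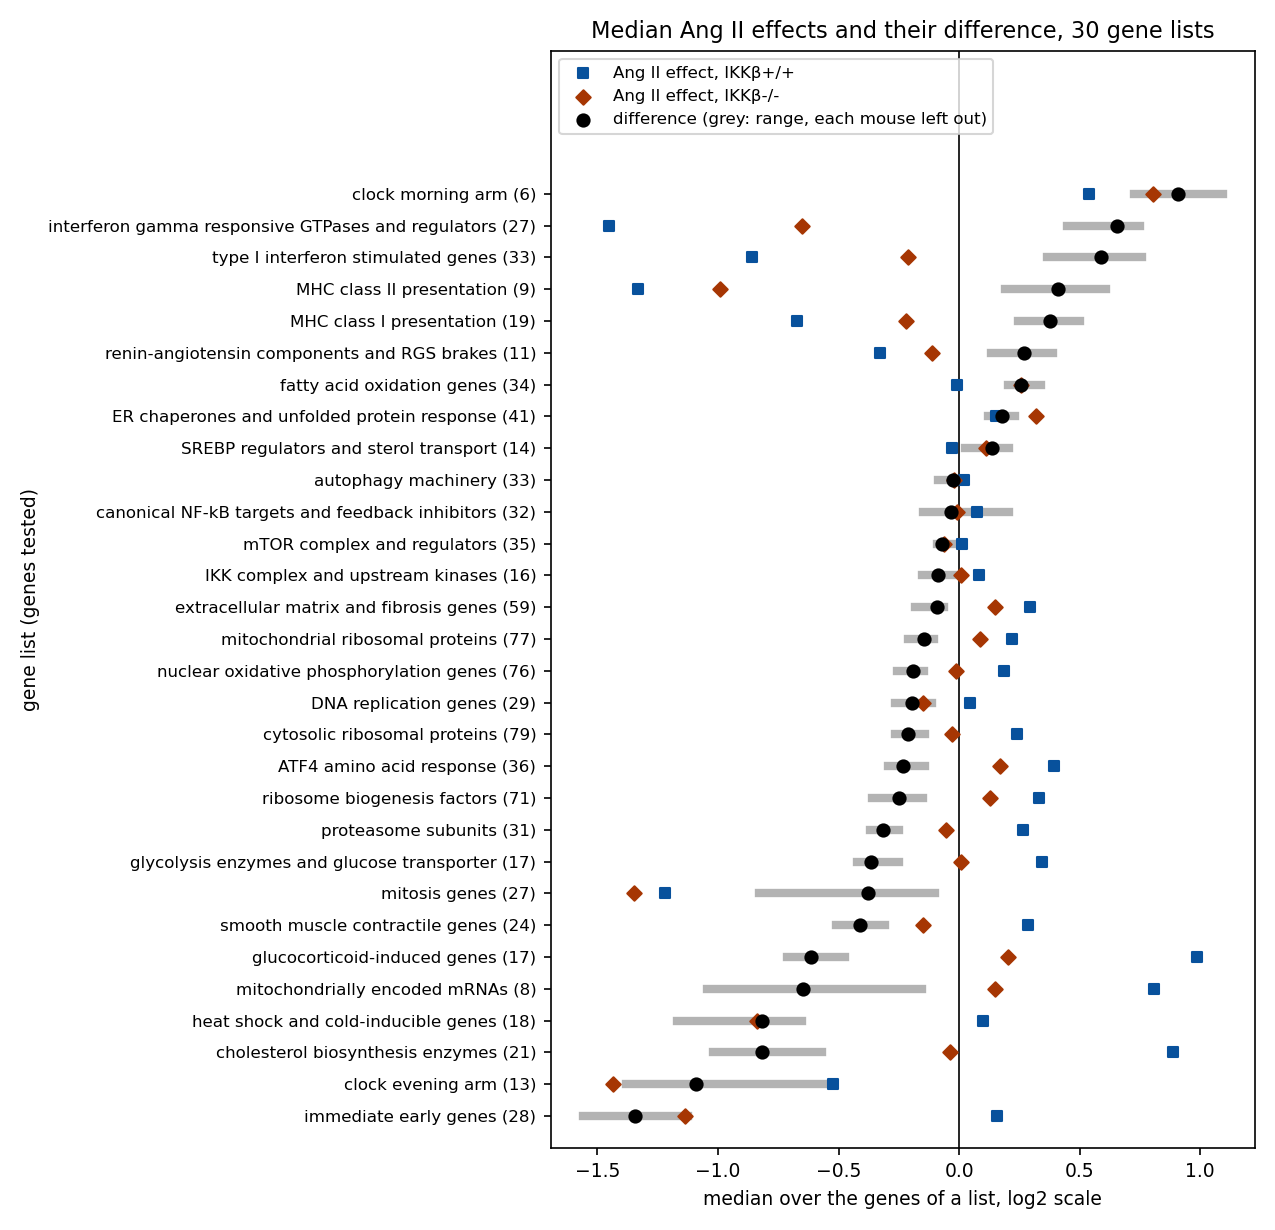
Median over the tested genes of each of 30 lists (log2 scale) of the Ang II effect in IKKβ+/+ mice (blue squares), in IKKβ-/- mice (brown diamonds) and of the difference (black circles), with the range of the median difference when each mouse is left out in grey. Immediate early genes have the lowest median difference, at -1.34, and clock morning arm genes the highest, at 0.91.

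For the difference, though not for the genotype contrasts, the pathway of the deleted kinase itself stood near the median of all genes. Canonical NF-κB targets and feedback inhibitors had a median difference of -0.035, which ranged from -0.15 to 0.21 when each mouse was left out. Their median between genotypes was -0.28 with saline and -0.34 with Ang II, against -0.020 and -0.0064 over all genes. At an unadjusted p under 0.05 for the difference, 4 of 32 were below 0 (12.5%) and 2 above 0 (6.25%), against 6.19% and 4.95% of all genes. Nfkbiz, the inducible nuclear IκBζ, had 194, 227, 245, 250.1 and 300.5 normalized counts in saline-infused and 258, 314, 358, 526 and 1104 in Ang II-treated IKKβ+/+ mice, and 294, 379, 411 and 438 and 132, 152, 236, 254 and 348 in IKKβ-/- mice. Its difference was -1.70 ± 0.45 (SE). Ptgs2 (COX-2) had -3.02, Nfkbia, the inhibitor that IKKβ phosphorylates, -0.83, and the protease Plau -1.29, while Lcn2 and Irf1 were above 0. Tnfaip3 and Birc3, standard feedback targets, had 0.43 (unadjusted p = 0.193) and -0.11 (unadjusted p = 0.585), and the chemokine Ccl2 had 0.47 (unadjusted p = 0.636). Of 16 genes of the IKK complex and its upstream kinases, Map3k1 was the 1 gene that reached an unadjusted p of 0.05 (6.25%, near the 4.95% of all genes above 0). The median of this list was -0.087 (0.02 with the adipocyte covariate).

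The mTOR complex and its regulators had a median of -0.073. At an unadjusted p under 0.05, 3 of 35 genes were below 0 (8.57%, near the 6.19% of all genes). The smallest p was that of Rps6kb2, an S6 kinase, at -0.71 ± 0.31 (SE). Autophagy machinery had -0.027. At an unadjusted p under 0.05, 4 of 33 genes were below 0 (12.1%) and 1 above 0 (3.03%, Atg14 at 0.39), against 6.19% and 4.95% of all genes. Those below were the lysosomal transcription factor Tfe3 at -0.34 ± 0.14 (SE) and Gabarap, Atg4d and Atg7 at -0.30, -0.49 and -0.49. Extracellular matrix and fibrosis genes had -0.092. At an unadjusted p under 0.05, 7 of 59 were below 0 (11.9%) and 2 above 0 (3.39%), against 6.19% and 4.95% of all genes. The smallest p was that of Ccn1, a matricellular protein induced by stretch, whose counts were 10242, 16196, 40248 and 43346 in saline-infused and 2303, 2868, 3528, 3584 and 6794 in Ang II-treated IKKβ-/- mice, without overlap, and whose difference was -3.06 ± 0.82 (SE). The cytokine Il11, tenascin C (Tnc), periostin (Postn) and Tgfb2 had -2.64, -1.06, -0.86 and -1.24, and Col5a3 and the gelatinase Mmp9 had 1.34 and 1.55. The fibrillar collagens Col1a1 and Col3a1 had 0.23 (unadjusted p = 0.452) and 0.34 (unadjusted p = 0.391). Mitosis genes had median effects of -1.22 in IKKβ+/+ and -1.35 in IKKβ-/- mice, and 0 of 27 reached an unadjusted p of 0.05 for the difference, whose median of -0.38 ranged from -0.83 to -0.10 when each mouse was left out, with Cdc20 the nearest at -1.01 ± 0.52 (SE). DNA replication genes had a median of -0.20. At an unadjusted p under 0.05, 3 of 29 were below 0 (10.3%), among them Pcna at -0.39, and 1 above 0 (3.45%), Mcm7 of the replicative helicase at 0.65. Renin-angiotensin components and RGS proteins had 0.27. Ace, the enzyme that makes Ang II, was the 1 of 11 genes past an unadjusted p of 0.05 (9.09%, against 4.95% of all genes above 0), at 0.60 ± 0.29 (SE).

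Genes of the study's own interest are given here whatever their outcome. Ikbkb differed by -0.029 ± 0.17 (SE) with a 95% interval of -0.39 to 0.33. Myh11, the smooth muscle myosin heavy chain, differed by -0.43 ± 0.36 (SE, interval -1.18 to 0.33) and Tagln (SM22α) by -0.62 ± 0.30 (SE, interval -1.24 to -0.0073). Atg5, needed for autophagosome formation, had -0.037 ± 0.16 (SE, interval -0.36 to 0.29) and Vcam1, a leukocyte adhesion molecule, -0.013 ± 0.36 (SE, interval -0.77 to 0.74). The interval of Vcam1 was the wider of these last 2, and both include 0. Ccn2 (CTGF), a matricellular protein, had 24150.5, 34453, 38662, 44369 and 61053 normalized counts in saline-infused and 37336, 54868, 78618, 116149 and 186061 in Ang II-treated IKKβ+/+ mice, and 28721, 80907, 95175 and 115827 and 22204, 30858, 33345, 38172 and 54537 in IKKβ-/- mice. Its difference was -2.12 ± 0.60 (SE, unadjusted p = 0.00205, limma adjusted p = 0.247).

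**Figure D5:**
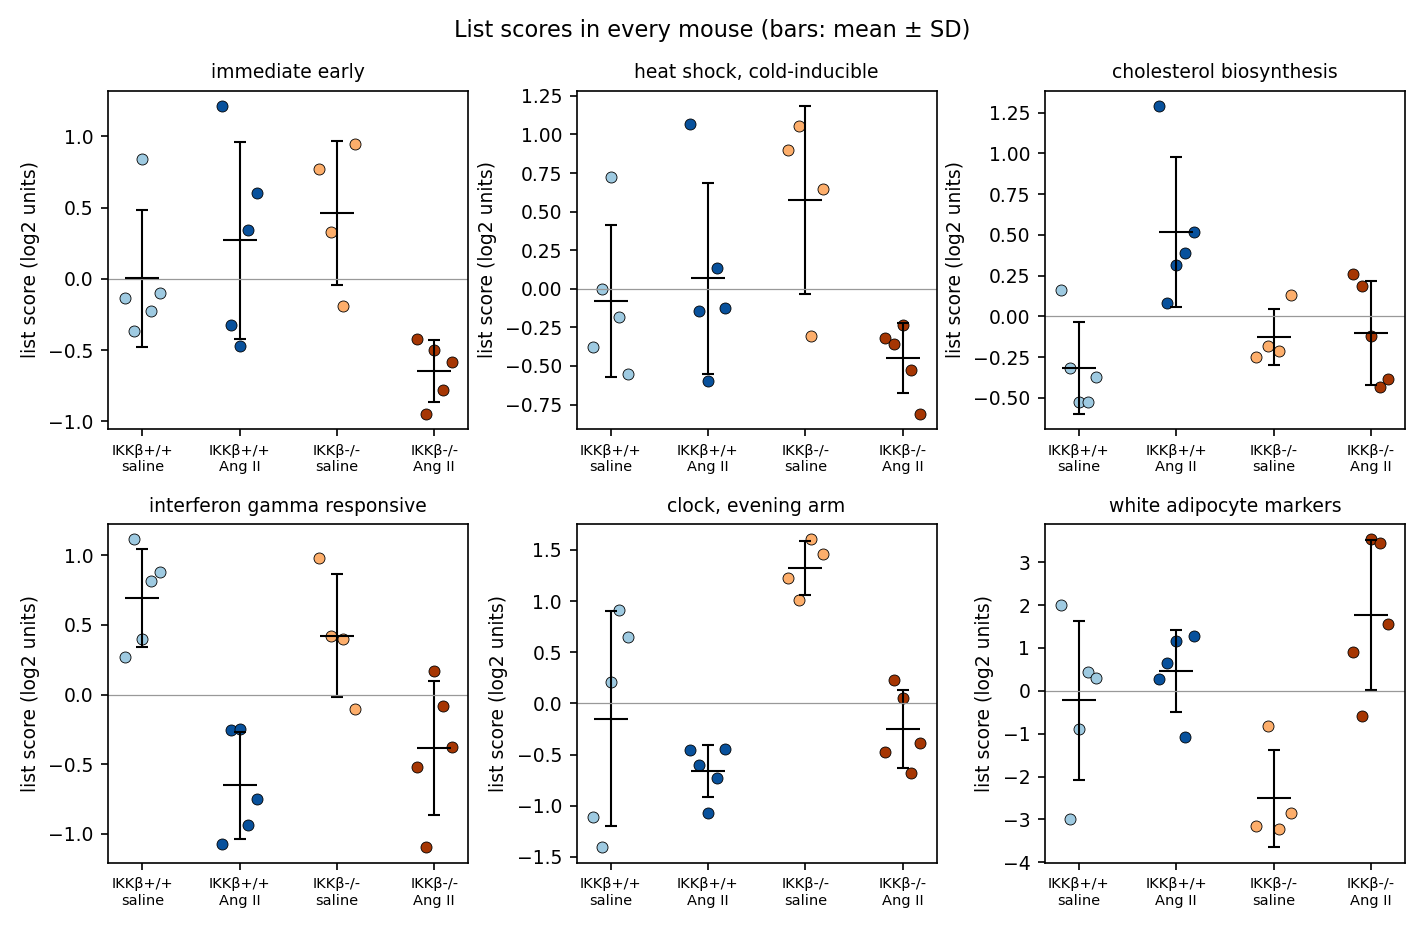
Scores of 5 gene lists and of the white adipocyte markers in every mouse (log2 units, 0 is the mean over all mice), by group, with the mean ± SD. White adipocyte markers were lowest in saline-infused IKKβ-/- mice (-3.22 to -0.82) and highest on average in Ang II-treated IKKβ-/- mice (-0.59 to 3.53).

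Cell type markers were read in the same way. At an unadjusted p under 0.05, 4.95% of all genes were above 0 and 6.19% below 0. All 7 white adipocyte markers tested were above 0 at an unadjusted p under 0.05, with a median difference of 3.54. Scores were -2.99 to 2.01 in saline-infused and -1.08 to 1.29 in Ang II-treated IKKβ+/+ mice, and -3.22 to -0.82 and -0.59 to 3.53 in the IKKβ-/- groups, so the IKKβ-/- groups did not overlap and the IKKβ+/+ groups did. Pck1, Plin1 and Adipoq, the hormone adiponectin, had differences of 5.41, 3.96 and 3.92. Of 6 brown adipocyte markers 3 were above 0 at an unadjusted p under 0.05 (50%), with a median of 2.51. Fibroblast, endothelial and macrophage markers had medians of 0.76, 0.48 and 0.42, all of their 7, 9 and 9 genes above 0 and 0 of them at an unadjusted p under 0.05. When each mouse was left out these medians ranged from 0.56 to 1.03, from 0.34 to 0.81 and from 0.12 (without X2384) to 0.66, and they were 0.22, 0.014 and 0.16 with the adipocyte covariate. Smooth muscle markers had -0.51 (-0.19 with that covariate) with 3 of 7 below 0 at an unadjusted p under 0.05 (42.9%). Skeletal muscle markers had -1.5 with 2 of 5 (40%), at summed counts of at most 492. In the fit with the white adipocyte score, 758 genes (5.11%) in place of 1654 had an unadjusted p under 0.05 and 0 passed the adjusted threshold. The score was made from the same libraries and differed between the groups, so the covariate takes away any difference that runs along with it. With the score of mitochondrially encoded mRNAs as a covariate 22 genes passed (0.148%), all with a difference below 0, and without mice X2406 and X2385 Abra, Adamts1 and Csrnp1 passed (0.0202%). All 24 genes of the plot of Ang II effects kept the sign of their difference in each of these fits. They were chosen by this same difference in the same mice, so the kept signs describe the choice and were not tested.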

How the data were processed

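Poly(A) RNA of the suprarenal abdominal aorta of 19 mice was sequenced as single-end reads. The authors used Trimmomatic 0.35 for trimming and STAR 2.7.1a for alignment to GRCm38, took read counts per Gencode gene from STAR, and deposited a signal per gene and mouse, the read count divided by the DESeq2 1.30.1 size factor (called the normalized count here). RSEM served them for TPM values, which were not used here. All values in the deposited table are whole multiples of what 1 read is worth in a mouse (100% within 0.05 reads), and the recovered reads were used in the count models. Columns with the authors' own comparisons were not used. A gene was kept if 4 or more mice had a normalized count of 10 or more, which left 14845 of 20408. Limma 3.58.1 in R 4.3.3 was fitted to log2(normalized count + 1) with 4 group means and a trend in the prior variance. The contrast was the Ang II effect of the IKKβ-/- genotype minus that of the IKKβ+/+ genotype, two-sided, with Benjamini-Hochberg adjustment over all 14845 genes, and a gene was called at an adjusted p under 0.1 with a fold above 1.2. Folds on this scale understate changes of low genes. With 11382573 to 19906694 reads per mouse, the spread between 4 or 5 mice, not counting error, set the precision. The mice carry separate labels and each group has its own block of mouse numbers, so a batch that follows the group cannot be told apart from it. The members and lists were chosen with earlier results of these data known, and calls within the single comparisons of 2 groups were added after their values had been seen. Named are, in each direction, the 12 genes with the smallest unadjusted p among those with a group mean of at least 50, the gene with the smallest p in each of 30 lists, Ikbkb, and 5 genes of the study. Other members of the lists are named as examples chosen after their values were seen, and some members are not reported here. Alternatives were edgeR 4.0.16 and DESeq2 1.42.0 on the reads, other scaling, pseudocounts, filters, thresholds and covariates, array weights, and each mouse left out. The fits were also checked on simulated counts with genes changed in the Ang II-treated IKKβ-/- group. Of 50 genes changed 2-fold, limma called 29 (58%), edgeR 27 and DESeq2 33. Among the genes left unchanged, limma called 8, edgeR 7 and DESeq2 32.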

Additional observations from a re-analysis of the deposited data

Results flagged for a closer look

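In groups of 4 or 5 mice, the highest or lowest mouse was compared with its nearest neighbour by the gap over the range of the group (Dixon's test at 95%), for the normalized counts of the 57 named genes, the mitochondrial share of reads and the reads on genes. Of 236 groups examined, 18 had a mouse that stood apart. The 95% level assumes independent, normally spread values. Counts of genes chosen from these same mice need not meet it, so the 18 were not compared with a number by chance. Mouse X2350 (IKKβ+/+, Ang II) was the mouse in 5 of them, with 1249 normalized counts of Cited2, 2137 of Sqle, 959 of Rpl35, 36413 of Ccn1 and 6738 of Hspa1a. Without X2350, 1186 differences in place of 1654 had an unadjusted p under 0.05. Mouse X2370 (IKKβ+/+, saline) held 1286 normalized counts of Pcx, 972 of Ypel2, 474 of Sqle and 1123 of Ndufv2. Mouse X2383 (IKKβ-/-, Ang II) held 6.35 of Alb and 1165 of Irs2. Single values stood apart for Fitm2 in X2409 (350.5), Abra in X2406 (353), Sdf2l1 in X2384 (622), Ccn1 in X2380 (6794), H2-DMb1 in X2386 (122), Hspa1a in X2373 (3781) and Atg5 in X2356 (403). No cause of these values was tested.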

How the results depend on the processing

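The count of genes called for the difference, 0 in limma with all mice, was 3 with edgeR, 279 with DESeq2, 76 with array quality weights and, in fits added after seeing the data, 22 with the score of mitochondrially encoded mRNAs as a covariate and 3 without mice X2406 and X2385. When each mouse was left out, it ranged from 0 to 79, with 79 without X2356, 19 without X2406, 1 without X2378 (Olfr629), 1 without X2409 (Mir143) and 0 for each other mouse. The count at an unadjusted p under 0.05 was 1608 with TMM scaling (831 above and 777 below 0), against 1654 with 735 above and 919 below 0. The cause of these changes was not tested. Differences near 0 changed sign: that of Ikbkb was 0.0021 with array weights, 0.025 with the mitochondrial covariate, 0.054 without X2406 and X2385 and -0.11 to 0.054 when each mouse was left out. That of Atg5 was 0.0059 with the adipocyte covariate and -0.14 to 0.021 when each mouse was left out. That of Vcam1 was 0.012 with TMM, 0.079 with edgeR, 0.0691 with DESeq2, 0.10 with the mitochondrial covariate and -0.21 to 0.24 when each mouse was left out. The value of Ikbkb by genotype, lower in IKKβ-/- mice, kept its sign and its side of the threshold in every fit (-184 to -154 normalized counts when each mouse was left out). Of 1706 values of named genes in other fits, 1581 kept direction and call, 100 passed the threshold and 25 changed sign. Of 900 medians of lists, 12 changed sign, in the lists of NF-κB targets, autophagy, IKK complex, fatty acid oxidation and MHC class II genes. The median standard error of 0.27 limits what these mice can show. No paired analysis was possible because each mouse number belongs to 1 group.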

Other observations

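Markers of cells that could adhere to or enter the vessel were read for the difference as well. The 4 neutrophil markers tested had a median of 0.44, which was -0.085 without mouse X2380, at most 0.98 when each other mouse was left out, and -0.71 with the adipocyte covariate, and 0 of the 4 reached an unadjusted p of 0.05. Their summed normalized counts reached 698.7 in 1 Ang II-treated IKKβ-/- mouse and at most 119 in saline-infused IKKβ-/- mice. The 3 T and B cell markers tested had a median of 1.51 (0.66 with the adipocyte covariate) at sums of at most 96.1 in any mouse. Of 7 neuron and Schwann cell markers, the Schwann cell factor Sox10 was the 1 that reached an unadjusted p of 0.05 (14.3%, against 4.95% of all genes above 0). The median of these markers was 0.53 (0.25 to 1 when each mouse was left out, -0.049 with the adipocyte covariate). The 5 erythroid markers had a median of 0.75 (0.077 without X2380, -0.15 with the adipocyte covariate), with sums from 98.4 to 4916. The 2 adrenal markers tested had -1.14 (-1.56 without X2359 and -0.57 without X2356).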
